A study of Homo sapiens with 24 samples.

Results

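The open chromatin of ENZ-resistant RES-A cells was compared with that of parental LNCaP cells while both were under enzalutamide (ENZ). The comparison comprised the 6 FAIRE-seq peak lists whose titles name the subline and ENZ as the only agent (3 for RES-A, 3 for LNCaP), out of 24 lists in all. LNCaP is a human prostate cancer cell line with a functional androgen receptor, and RES-A is a subline of it that is resistant to ENZ. Both were cultured for 3 days with 5% serum stripped of hormones with charcoal, and were then given 10 µM ENZ for 18 h without dihydrotestosterone (DHT). The RES-A cells had 10 µM ENZ during the 3 days of culture as well, and the LNCaP cells did not, so the subline and the length of ENZ exposure cannot be told apart. The other 18 libraries, 9 per subline, had received DMSO (the solvent), 10 nM DHT, or DHT together with 10 µM ENZ (DHT+ENZ) for 18 h, with 3 libraries for each of the 8 groups. The study describes the culture once for all groups, so RES-A cells given DMSO or DHT had also had ENZ in the 3 days before. The study calls the 3 libraries of a group biological replicates. All RES-A libraries come from 1 resistant subline, so the values describe this pair of sublines.

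The androgen receptor is a transcription factor that enters the nucleus when it binds androgen and then acts at enhancers. ENZ competes with androgens for the receptor and hinders its entry into the nucleus and its binding to DNA. Enhancers and promoters in use are depleted of nucleosomes. FAIRE (formaldehyde-assisted isolation of regulatory elements) recovers such DNA from crosslinked and sheared chromatin, because DNA not bound to protein goes into the aqueous layer when the chromatin is extracted with phenol. A peak marks a stretch with more fragments than the surrounding background, and its fold enrichment is the height of its summit over that background. Positions are those of hg19. Nearby genes were not analysed here, and the identity of the cells was therefore not checked at marker loci.

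Depth was uneven, and 1 library stood apart. On chromosomes 1 to 22, X and Y, the RES-A lists held 195357, 239293 and 186091 peaks, and the LNCaP lists held 72950, 222554 and 217078. The genome-wide background of a library, recovered from the deposited pileup and fold enrichment and used here as a measure of depth, was 2.27, 4.48 and 2.57 reads per base in RES-A. It was 0.406, 3.80 and 4.45 in LNCaP, so that LNCaP replicate 1 was by far the shallowest of the 6. Its peaks had a median length of 149 bp, against 221 to 243 bp in the other 5 libraries, and its weakest peak had a summit of 4 fragments, against 8 to 12. The main counts of separated and changed regions are therefore given with and without it, and all other counts include it unless stated.

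Of 6 summary measures of the lists, none differed between the sublines beyond the spread of the libraries. The mean number of peaks was 206900 ± 28400 (SD, n = 3) in RES-A and 170900 ± 84800 (SD, n = 3) in LNCaP (exact two-sided permutation p = 0.8; Benjamini-Hochberg adjusted p = 0.9, 6 measures). Without LNCaP replicate 1 the order turned, with a mean of 219800 peaks in the remaining pair of LNCaP libraries. The peaks covered 55.8 ± 9.36 Mb in RES-A and 43.0 ± 26.3 Mb in LNCaP (SD, n = 3; exact permutation p = 0.6), and here too the order turned without that library (58.1 Mb in LNCaP). The smallest p that 3 libraries against 3 allow is 0.1, and the lowest among the measures was 0.2, for median peak length.

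**Figure D1:**
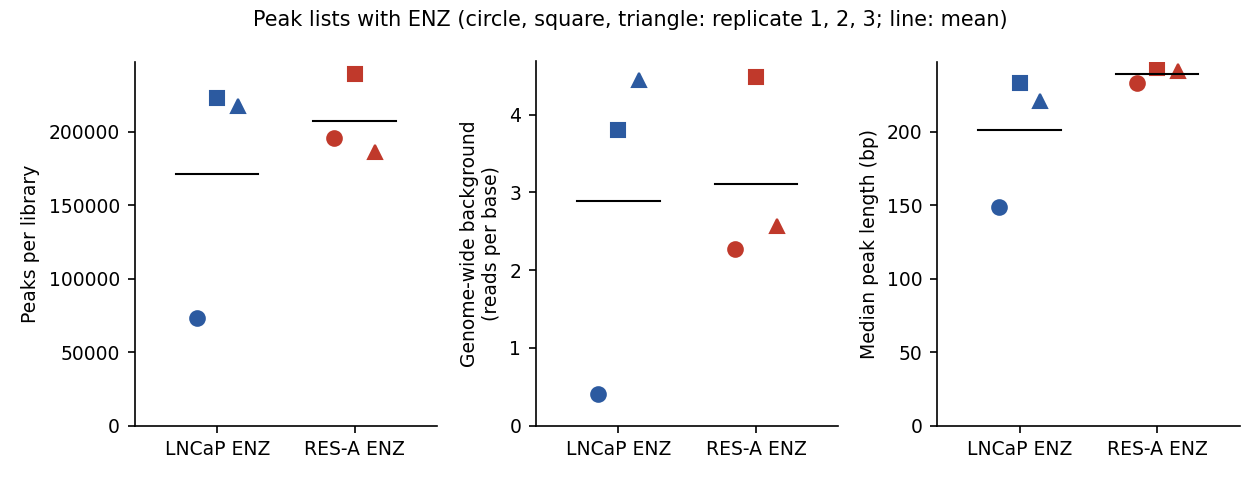
Number of peaks, genome-wide background (reads per base) and median peak length (bp) of each of the 6 libraries; circles, squares and triangles are replicates 1, 2 and 3, and lines are group means. LNCaP replicate 1 lies far below the other libraries in all 3 panels, at 72950 peaks, 0.406 reads per base and 149 bp.

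Which sites were strongest differed more between sublines than among deep libraries of 1 subline. Similarity was measured as the base-pair Jaccard index (bases shared over all bases covered) of the 50000 peaks of each library with the highest −log10 p. The weakest of these peaks had a −log10 p of 5.35 in LNCaP replicate 1, against 16.55 to 31.2 in the other libraries. The 3 pairs of RES-A libraries had indices of 0.659 to 0.667. LNCaP replicates 2 and 3 had an index of 0.629 with each other but of only 0.246 and 0.251 with LNCaP replicate 1. Between sublines, the indices were 0.44 to 0.452 with LNCaP replicates 2 and 3, and 0.21 to 0.228 with LNCaP replicate 1. Deep libraries of 1 subline were thus more alike than libraries of different sublines, while the shallow library was unlike all others, its own group included. The share of the distance between libraries that went with the subline was R2 = 0.389 (permutational analysis of the distances, exact permutation p = 0.1, the smallest possible), and with R2 = 0.606 without LNCaP replicate 1. In terms of sites, 84.7% to 86.4% of the top-ranked peaks of a RES-A library overlapped a top-ranked peak of another RES-A library, against 66.5% to 67.6% between RES-A and LNCaP replicates 2 and 3.

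All peaks of the 6 libraries merged into 414732 regions (overlap of at least 1 bp). A peak was called in all 6 libraries at 44696 regions (10.8%). These shared regions, each merged from peaks of all 6 libraries, had a median length of 465 bp. At the other extreme, 182918 regions (44.1%) had a peak in a single library. A further 59186 regions (14.3%) were called in all RES-A libraries and in 2 LNCaP libraries. LNCaP replicates 2 and 3 had 101350 regions in common that replicate 1 lacked, which is 24.4% of all merged regions.

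The regions that separated the sublines had a peak in all 3 libraries of one and in none of the other. There were 20361 such regions for RES-A (4.91% of all merged regions) and 2272 for LNCaP (0.548%). The imbalance was not seen without the shallow library. Without LNCaP replicate 1, 21101 of 400957 regions (5.26%) were called in all RES-A libraries and not in LNCaP, and 24246 (6.05%) were called in both remaining LNCaP libraries and not in RES-A. The criteria were then unequal, with 3 calls needed in RES-A and 2 in LNCaP. Needing 2 calls in RES-A, with 1 RES-A library left out and all LNCaP libraries kept, gave 22553 to 28959 RES-A-only regions. Among the 50000 top-ranked peaks of each library, 7026 of 93036 regions (7.55%) were found in RES-A only and 3117 (3.35%) in LNCaP only. These regions were separated by rank, and the other subline could have a lower-ranked peak there. Without LNCaP replicate 1 these became 8207 of 77414 (10.6%) and 7867 (10.2%). RES-A-only regions thus outnumbered LNCaP-only regions by a wide margin only where the shallow library was included, while at least 2272 regions were counted in each direction under every one of these settings. Presence in 3 against 3 libraries cannot reach a p under 0.1, and these counts are a description.

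**Figure D2:**
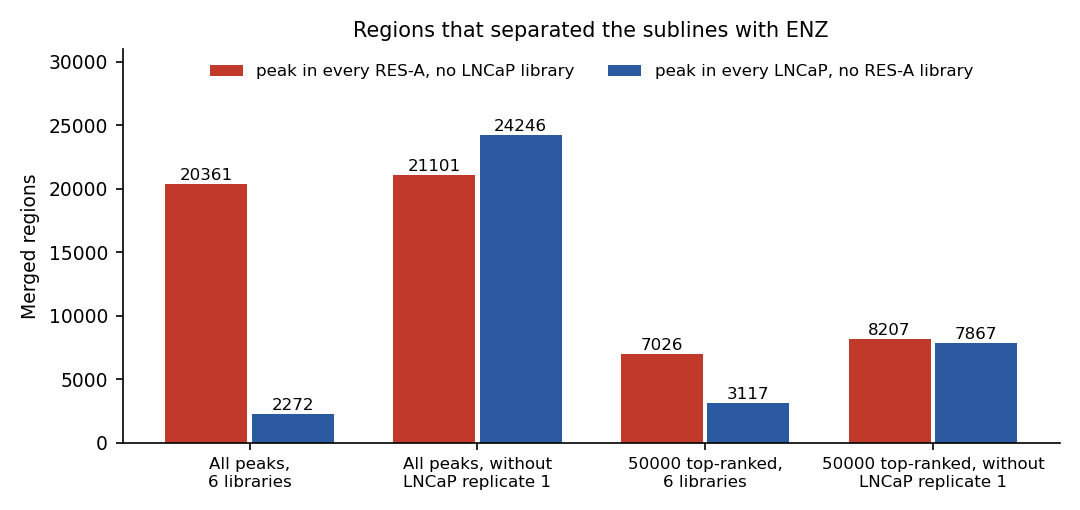
Merged regions with a peak in every RES-A and no LNCaP library (red) or in every LNCaP and no RES-A library (blue), for all peaks and for the 50000 top-ranked peaks, with and without LNCaP replicate 1. For the top-ranked peaks, lower-ranked peaks of the other subline were not counted. Blue bars rise from 2272 to 24246 and from 3117 to 7867 regions when that library is left out, and red bars change from 20361 to 21101 and from 7026 to 8207.

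Separated regions were weaker and shorter than shared ones, an order that the rules favour. Shared regions needed a call in all 6 libraries, and their length is that of merged peaks from more libraries. The part of the rules in this order was not tested. The RES-A-only regions had a median length of 290 bp and a median fold enrichment of 4.38. In 4731 of them (23.2%) every RES-A library reached a fold enrichment of 5, and in 330 every one reached 10. The LNCaP-only regions had a median length of 363.5 bp and a median fold enrichment of 4.18, and 171 (7.53%) reached 5 in every LNCaP library. At the regions called in all 6 libraries, by contrast, 78.6% reached 5 in every RES-A library and 45.6% in every LNCaP library. Within 10 kb of a RES-A-only region, another RES-A-only region lay in 25.3% of cases and an LNCaP-only region in 0.914%, where the shares around regions called in all 6 libraries were 18.3% and 1.15%. For LNCaP-only regions the shares were 5.28% with another LNCaP-only region and 7.39% with a RES-A-only region, in a set with many more RES-A-only members.

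The strongest RES-A-only regions had no peak in any LNCaP library, whatever the treatment. At chr17:75485960-75486327 the fold enrichment was 18.9, 19.3 and 17.1 in the 3 RES-A ENZ libraries, with summits of 61, 105 and 60 fragments. At chr17:30023298-30023692 it was 17.0, 17.0 and 17.4. The values were 16.7, 17.6 and 16.5 at chr6:150900728-150901187. All of these lie close together across replicates. At chr20:35464037-35464407 they were 17.4, 16.3 and 17.5, and at chr19:4449152-4449791 they were 16.2, 16.9 and 16.3. Each of these 5 regions also had a peak in all 9 RES-A libraries with DMSO, DHT or DHT+ENZ, at fold enrichments between 10.7 and 19.4, and in 0 of the 9 LNCaP libraries. The background around them was close to the genome-wide level, at 1.0 to 1.4 times that of the same library. This ratio cannot fall below 1.0, because the genome-wide level is the lowest background recovered in a library.

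The strongest LNCaP-only regions were weaker. They were picked by their lowest fold enrichment among 2272 regions, against 20361 for RES-A, and had to be called in the shallow library. At regions called in all 6 libraries the median fold enrichment was also lower in LNCaP, at 6.4 against 8.34 in RES-A. The part of these in the order was not tested. At chrX:15755863-15756403 the fold enrichment in LNCaP was 9.08, 8.96 and 10.8, and at chr19:12075568-12075992 it was 9.33, 10.6 and 8.81. At chr5:30838026-30838689 the values were 8.0, 9.38 and 7.75. These 3 regions had a peak in all 9 LNCaP libraries with other treatments and in 0 of the 9 RES-A ones. At chr3:186313622-186314059 the values were 7.6, 8.41 and 9.27, and 8 of the 9 other LNCaP libraries had a peak there, with 0 of the 9 RES-A ones. The region chr9:111354-111807 (7.69, 8.5 and 8.52) was different, because 5 of the 9 other RES-A libraries had a peak there, including all 3 with DHT. The local background at these 5 regions was 1.0 to 2.02 times the genome-wide level of the library, and highest at chr9:111354-111807 (1.78 to 2.02). In the shallow library these 5 LNCaP calls rested on summits of 10 to 15 fragments, against 41 to 83 in LNCaP replicates 2 and 3.

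The separation seen with ENZ was looked for in the 18 libraries that took no part in choosing the regions. Of the 20361 RES-A-only regions, the 9 other RES-A libraries had a peak at 66.0% to 90.8% (median 80.7%). The 9 other LNCaP libraries had a peak at 1.69% to 19.4% (median 12.4%), so that the sublines did not overlap. Over all merged regions, the same libraries had a peak at 16.8% to 49.9%, and that background share did not separate the sublines. The difference of the means was 68.0 percentage points, higher in 9 of 9 RES-A libraries (exact permutation of the subline labels within treatments, two-sided p = 0.00025, the smallest that 8000 relabelings allow). Of the 2272 LNCaP-only regions, the LNCaP libraries had a peak at 37.9% to 94.1% and the RES-A libraries at 8.19% to 19.8%. The difference was -65.7 percentage points (exact permutation p = 0.00025). For regions separated without LNCaP replicate 1, an alternative added after seeing the data, the differences were 67.0 and -51.2 points, and the LNCaP libraries had a peak at 18.9% to 85.0% of the LNCaP-only regions against 7.09% to 13.3% in RES-A. For regions separated among the 50000 top-ranked peaks the differences were smaller, 37.9 and -13.8 points (exact permutation p = 0.00025 and 0.001). There the RES-A libraries had a peak at 78.2% to 86.2% of the LNCaP-only regions and the LNCaP libraries at 74.6% to 100%, so that the sublines overlapped.

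**Figure D3:**
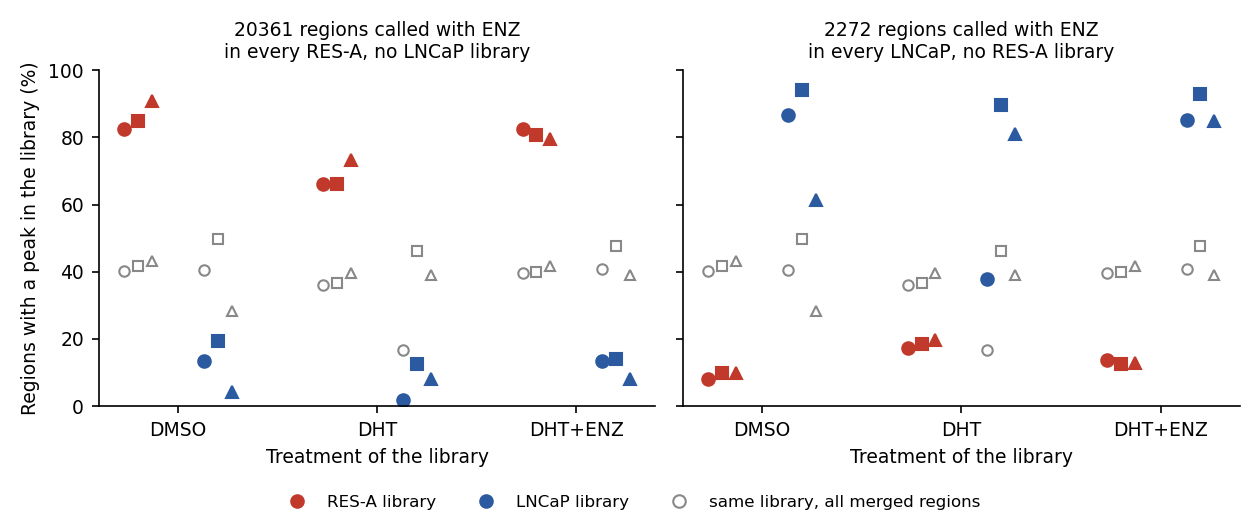
Percent of the regions separated with ENZ that had a peak in each of the 18 libraries given other treatments (red, RES-A; blue, LNCaP; open grey symbols, the same library over all merged regions; shapes are replicates 1 to 3). RES-A libraries lie at 66.0% to 90.8% in the left panel and at 8.19% to 19.8% in the right panel, and LNCaP libraries lie at 1.69% to 19.4% and at 37.9% to 94.1%.

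Among the treatments, the RES-A-only regions were called most often with DMSO and least often with DHT. The shares in RES-A were 82.6%, 85.0% and 90.8% with DMSO, 66.1%, 66.0% and 73.4% with DHT, and 82.6%, 80.7% and 79.5% with DHT+ENZ. The DHT libraries lay below all others without overlap, by 17.6 percentage points from DMSO (exact permutation p = 0.1, the smallest possible; adjusted p = 0.24, 12 contrasts). Their share over all merged regions was lower too, at 36.2% to 39.6% against 40.1% to 43.3% with DMSO, and the part of this in the difference was not tested. At LNCaP-only regions the order in RES-A was the opposite. There the shares were 17.3%, 18.4% and 19.8% with DHT, 13.7%, 12.4% and 12.9% with DHT+ENZ, and 8.19%, 9.77% and 10.0% with DMSO. The 3 groups did not overlap, although their shares over all regions ran the other way (DHT above DMSO by 9.18 points, exact permutation p = 0.1; adjusted p = 0.24). None of the 12 contrasts between treatments could pass the adjustment, since 3 libraries against 3 allow no exact permutation p under 0.1.

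Few separated regions lacked a peak in all 9 other libraries of their own subline: 142 RES-A-only (0.697%) and 13 LNCaP-only regions (0.572%), where 37.3% and 33.1% of all merged regions lacked one. Separated regions were called in every ENZ library of their subline by rule, whereas 182918 of all merged regions (44.1%) were called in a single library. The shares over all merged regions in this paragraph are thus not matched for repeated calls, and the part of the rule in the differences was not tested. Of the RES-A-only regions, 8015 (39.4%) had a peak in all 9 other RES-A libraries and 11998 (58.9%) had none in any of the 9 other LNCaP libraries, against 24.2% and 33.1% of all merged regions. Both held for 4543 regions (22.3%, against 1.29% of all merged regions), which thus separated the 12 RES-A from the 12 LNCaP libraries completely. No peak in any of the 18 other libraries was found at 90 (0.442%, against 21.0%), and a peak in at least 6 of the 9 other LNCaP libraries at 467 (2.29%, against 33.3%). Of the LNCaP-only regions, 285 (12.5%, against 0.312%) separated all 12 from all 12 libraries, 11 (0.484%, against 21.0%) had no peak in any of the 18, and 111 (4.89%, against 34.9%) had one in at least 6 of the 9 other RES-A libraries. Among regions separated without LNCaP replicate 1, a peak in all 9 other libraries of the subline and none of the other was found at 4600 of 21101 RES-A-only (21.8%) and 1070 of 24246 LNCaP-only regions (4.41%). The reverse separation in another treatment was seen at 0 to 3 regions of either set. By treatment, the RES-A-only regions were again called in 3 of 3 RES-A and 0 of 3 LNCaP libraries at 51.4% with DMSO, 47.3% with DHT+ENZ and 38.9% with DHT, where 4.14%, 3.66% and 3.83% of all merged regions were. The LNCaP-only regions were separated again at 45.2% with DMSO, 55.0% with DHT+ENZ and 19.2% with DHT, where 2.27%, 3.97% and 1.01% of all merged regions were. Among the DHT libraries, LNCaP replicate 1 was shallow and had a peak at 37.9% of these regions. The RES-A libraries had a peak at 17.3% to 19.8% of them with DHT, against 8.19% to 13.7% with DMSO or DHT+ENZ. The part of either in the low value with DHT was not tested.

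At sites open in both sublines, the height of the peaks was compared as the log2 of the highest fold enrichment of each library in the region, after quantile normalization. Before normalization the RES-A libraries were higher by a median of 0.387 over the 44696 regions called in all 6 libraries, and the differences below are relative to that shift. In limma, 643 regions (1.44%) were higher in RES-A and 588 (1.32%) were lower at an adjusted p under 0.05. The median log2 difference was 0.94 among the former and -0.96 among the latter, against 0 over all common regions. In 244 and 238 of them the difference exceeded 1, a doubling of the enrichment. The libraries of the sublines did not overlap at any of the called regions, nor at 27.6% of all common regions.

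The number called depended on which libraries entered. It was 7693 without LNCaP replicate 1, 341 without LNCaP replicate 2, and 0 without LNCaP replicate 3 or without RES-A replicate 1, 2 or 3 (limma; smallest adjusted p between 0.0549 and 0.13, with 5661 to 8340 regions at an unadjusted p under 0.05). At the 102345 regions called in the 5 libraries other than LNCaP replicate 1, 11359 (11.1%) were higher in RES-A and 10025 (9.8%) were lower. By direction, 3964 were higher and 3729 lower in RES-A without LNCaP replicate 1, and 256 and 85 without LNCaP replicate 2. Quantile normalization sets the overall difference to about 0, so the balance of directions is not a result.

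The largest increases in RES-A were 3.07-fold to 3.54-fold. At chr5:133841805-133842275 the deposited fold enrichment was 18.4, 19.1 and 19 in RES-A and 3.56, 5.63 and 4.59 in LNCaP. The sublines were far apart there, with a log2 difference of 1.82 ± 0.18 (SE; limma adjusted p = 0.0156). At chr7:45872356-45872765 the values were 17.6, 16.5 and 19.2 against 4.94, 3.96 and 2.94 (log2 difference 1.80 ± 0.24). At chr20:3061455-3062101 they were 16.4, 15.7 and 14.4 against 3.56, 5.0 and 3.12 (1.75 ± 0.18 on the log2 scale). The lowest RES-A library lay well above the highest LNCaP library at each of these 3 sites. Regions were named only where the sublines did not overlap. The region chr17:10113465-10113928 had 15.4, 17.3 and 17.2 against 3.56, 5.21 and 3.86 (log2 difference 1.74 ± 0.17), and chr12:122473202-122473643 had 18.1, 17.8 and 19.3 against 4.15, 7.5 and 3.67 (1.62 ± 0.20). At these 5 regions the summits were 4 to 6 fragments in LNCaP replicate 1, whose weakest peak had 4. They were 15 to 35 in LNCaP replicates 2 and 3 and 63 to 148 in RES-A.

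The largest decreases were 2.79-fold to 3.2-fold. At chr19:58951405-58951896 the fold enrichment was 4.58, 5.48 and 5.88 in RES-A and 10.0, 16.4 and 14.2 in LNCaP, a log2 difference of -1.68 ± 0.14 (SE; limma adjusted p = 0.0156). At chr8:35650941-35651680 it was 3.06, 4.2 and 3.64 against 6.25, 10.5 and 11.1 (log2 difference -1.60 ± 0.20). Replicate 1 was the lowest LNCaP library at both sites, and it still lay above every RES-A library, as the rule for naming required. At chr15:22419559-22419949 the values were 3.06, 4.02 and 3.08 against 5.97, 11.3 and 7.82 (-1.54 ± 0.19 on the log2 scale). The region chr15:101041180-101041662 had 3.67, 4.2 and 3.08 against 5.92, 11.0 and 9.15 (log2 difference -1.5 ± 0.19), and chr13:67369648-67370204 had 3.36, 2.92 and 3.92 against 8.21, 8.82 and 6.92 (-1.48 ± 0.21). The summits at these 5 regions were 9 to 29 fragments in RES-A, where the weakest peaks of the libraries had 8 to 12. They were 8 to 16 in LNCaP replicate 1 and 42 to 102 in LNCaP replicates 2 and 3. The adjusted p of the 10 named regions was 0.0156 or 0.0169. Each lost its call when LNCaP replicate 3 or any 1 RES-A library was left out (adjusted p between 0.0549 and 0.139), with log2 differences of 1.47 to 1.92 and of -1.36 to -1.72 in these fits, and kept it without LNCaP replicate 1 or 2.

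**Figure D4:**
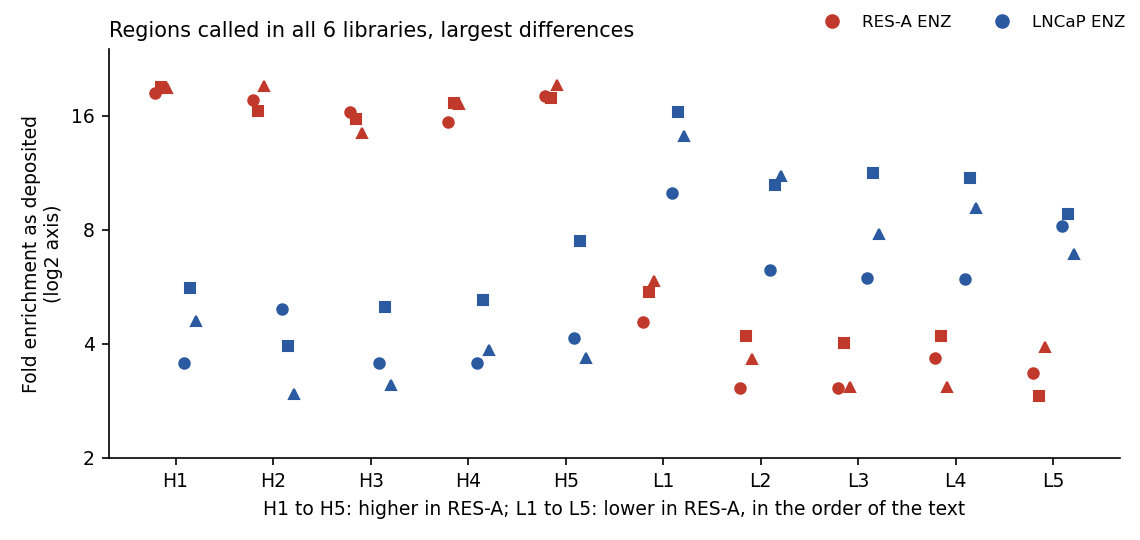
Deposited fold enrichment (log2 axis) of the 10 named regions in each of the 6 libraries (red, RES-A; blue, LNCaP; circles, squares and triangles are replicates 1 to 3), with H1 to H5 and L1 to L5 in the order of the text. RES-A libraries lie between 14.4 and 19.3 at H1 to H5 and between 2.92 and 5.88 at L1 to L5, with no overlap between the sublines at any of the 10, as the choice of regions required.

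The background around the named regions moved with the peaks. In the 5 regions that were higher in RES-A, the local background was 1.08 to 1.74 times the genome-wide level in RES-A libraries and 1.0 to 1.1 times in LNCaP libraries. In the 5 that were lower it was 1.0 in RES-A and 1.01 to 2.26 in LNCaP. The value of 1.0 is the lowest possible, so a background below the genome-wide level would not show. Over all called regions, the median log2 difference of the local background was 0.29 for those higher in RES-A and -0.29 for those lower, against 0.07 for all common regions. Fold enrichment is the summit over this background, so a higher background lowers it for a given summit, and the part of the background in these calls was not tested. With the summit height (pileup) in place of fold enrichment, 3300 regions were higher in RES-A and 3269 were lower.

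Regions called with ENZ kept their direction in the other treatments, as far as they had a value in all 6 libraries of a treatment. Of the 643 regions higher in RES-A, 520 had such values with DMSO, and 99.4% of these were higher in RES-A, with a median log2 difference of 0.73. The share was 98.6% of 212 with DHT and 99.5% of 563 with DHT+ENZ. Of the 588 lower regions, 0.431% of 464 were higher in RES-A with DMSO, 0.877% of 342 with DHT and 0.459% of 436 with DHT+ENZ. Over all common regions, 49.7% to 50.4% were higher in RES-A in these treatments. The median differences of the called sets ran from 0.72 to 0.79 and from -0.60 to -0.83, smaller than with ENZ, where they had been chosen for their size.

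Whether the difference between sublines was itself another with ENZ than with DMSO was tested in the 12 libraries concerned. The RES-A cells given DMSO had been under ENZ in the 3 days before, so they were not free of earlier ENZ. Of 41213 regions called in all 12, 0 (0%) passed an adjusted p under 0.05 in limma. The smallest adjusted p was 0.975, and 1606 regions (3.9%) had an unadjusted p under 0.05. Against the mean of DMSO, DHT and DHT+ENZ, 1 of 29296 regions called in all 24 libraries passed (0.00341%; limma, adjusted p = 0.0421). It lies at chr8:102289683-102290976, where the fold enrichment was 14.3, 9.68 and 11.6 in RES-A ENZ and 3.39, 4.87 and 3.93 in LNCaP ENZ. In the 18 other libraries it was 9.51 to 14.3 in RES-A and 5.83 to 9.18 in LNCaP, so the LNCaP ENZ libraries were the lowest of all 24. Its call was lost without LNCaP replicate 1 (adjusted p = 0.237). A p that misses the threshold does not show that the subline difference was the same in every treatment.

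Separated and changed sites were unevenly spread over the chromosomes. With LNCaP replicate 1 left out, RES-A held 46.5% of all separated regions, but 73.7% of those on chromosome 19, 70.5% on chromosome 16, 66.7% on chromosome 6 and 66.3% on chromosome 17. Its share was lowest on chromosome 4, at 27.7%, followed by chromosome 15 at 32.8% and chromosomes 8 and 13 at 33.5% each. In the limma comparison, 1.44% of all common regions were higher and 1.32% lower in RES-A. Chromosome 6 had 55 regions higher and 15 lower in RES-A (2.64% and 0.72% of its regions). Chromosome 8 had 29 higher and 65 lower (1.36% and 3.04%), and chromosome 15 had 8 higher and 34 lower (0.532% and 2.26%). Chromosome 4 had 18 higher and 39 lower (0.725% and 1.57%), and chromosome 13 had 9 higher and 16 lower (1.06% and 1.88%). Chromosome 19, where RES-A held the largest part of the separated regions without LNCaP replicate 1, had 14 higher and 10 lower (1.03% and 0.737%).

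Some stretches of 1 Mb held many separated regions, where the median over 2915 such windows was 6 RES-A-only and 0 LNCaP-only regions. The stretch chr6:43000001-44000000 had 41 RES-A-only regions among 174, chr5:174000001-175000000 had 38 among 111, and chr8:139000001-140000000 had 37 among 93, with 0 LNCaP-only regions in each. Without LNCaP replicate 1 the stretch on chromosome 5 also held 4 LNCaP-only regions. In the 18 other libraries, a peak lay at 61.0% to 97.4% of these regions in RES-A and at 0% to 19.5% in LNCaP. Over all RES-A-only regions these shares were 66.0% to 90.8% and 1.69% to 19.4%. The LNCaP-only regions were most frequent in chr13:63000001-64000000 (19 among 142), chr4:135000001-136000000 (11 among 135) and chr3:21000001-22000000 (10 among 104). At these LNCaP-only regions the 18 other libraries had a peak at 52.6% to 100% in LNCaP and at 0% to 18.2% in RES-A. Over all LNCaP-only regions the shares were 37.9% to 94.1% and 8.19% to 19.8%. Without LNCaP replicate 1 these 3 stretches held 54, 44 and 39 LNCaP-only regions.

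The genome was then divided into windows of 10 Mb. Each window was given the percentage of the 50000 top-ranked peaks of a library that it held. All libraries thus contributed the same number of peaks, but not peaks of the same depth or strength. Of 307 windows, 91 (29.6%) held a higher share in RES-A and 104 (33.9%) a lower one (limma, adjusted p under 0.05). Without any 1 library, 156 to 220 windows passed. The largest increases lay on chromosome 6. In chr6:80000001-90000000 the shares were 0.212%, 0.21% and 0.214% in RES-A and 0.134%, 0.064% and 0.054% in LNCaP, a ratio of 2.74 (log2 difference 1.45 ± 0.26, adjusted p = 0.000709). The shallow library was the highest of the 3 LNCaP libraries there.

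In chr6:50000001-60000000 the shares were 0.308%, 0.302% and 0.306% against 0.168%, 0.112% and 0.13% (ratio 2.27). Further increases were found in chr6:40000001-50000000 (ratio 1.87), chr21:40000001-50000000 (1.86) and chr6:70000001-80000000 (1.71). The largest decrease was in chr13:60000001-70000000, where RES-A had 0.042%, 0.034% and 0.04% and LNCaP had 0.188%, 0.184% and 0.192%, a ratio of 0.205 (log2 difference -2.29 ± 0.11). All 3 LNCaP libraries, the shallow one included, lay within 0.184% to 0.192% there. The other large decreases were in chr8:30000001-40000000 (ratio 0.377), chr3:80000001-90000000 (0.38), chr8:20000001-30000000 (0.394) and chr4:90000001-100000000 (0.406). The 10 named windows passed with any 1 library left out. Their size depended on the peaks used. With all deposited peaks the log2 difference was -1.45 in chr13:60000001-70000000, -0.95 in chr8:30000001-40000000, -0.64 in chr8:20000001-30000000, 0.78 in chr6:50000001-60000000 and 0.56 in chr21:40000001-50000000. With the 25000 top-ranked peaks it was -2.3 in chr8:30000001-40000000 and 1.33 in chr6:70000001-80000000.

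The local background moved with these windows as well. In the 5 named windows with a higher share in RES-A, the median local background at common regions was 1.59 to 2.12 times the genome-wide level in RES-A libraries and 1.0 to 1.17 times in LNCaP libraries. In chr13:60000001-70000000 it was 1.0, the lowest possible value, in RES-A and 1.64 to 1.69 in LNCaP. Over the 306 windows with at least 20 common regions, Pearson's r between the log2 difference in peak share and that in local background was 0.844, and 0.85 with the background taken without LNCaP replicate 1. This is a description over windows of the same 6 libraries, whose peaks and background come from the same reads. Of the 90 such windows with a higher share in RES-A, 88 had a higher local background there, and of the 104 with a lower share 79 had a lower one, where 198 of all 306 had a higher one. The number of DNA copies per cell was not analysed here, and its part and that of the local background in the window differences were not tested.

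**Figure D5:**
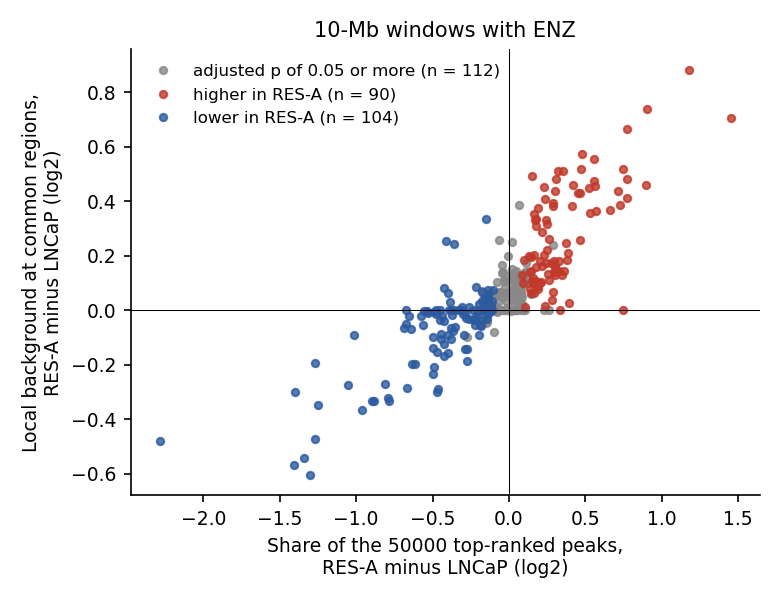
Difference between the sublines (RES-A minus LNCaP, log2) in the share of the 50000 top-ranked peaks (x axis) and in the median local background at common regions (y axis) for 306 windows of 10 Mb. Red and blue points are windows with a higher or lower share in RES-A at an adjusted p under 0.05, grey points are the others, and the differences rise together (Pearson's r = 0.844).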

How the data were processed

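The deposited data are 24 FAIRE-seq peak lists, 1 per library. Per the submitters' processing notes and the study's methods, the authors aligned 50-bp single-end reads to hg19 with bwa 0.7.8-r455, handled duplicates with Picard 1.118 and ran MACS2 2.1.0 on each library alone. The peak caller's options and any control library are not given in the sources used here. The deposited lists hold each peak's position, the pileup at its summit (a signal, in fragments, not scaled between libraries), −log10 of the p-value and of the q-value, and fold enrichment over the expected pileup (a ratio). The smallest deposited −log10 q value of every list corresponds to a q threshold of 0.05.

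The sample titles gave the groups and the replicate numbers. Read totals were not used here. The background at a peak was recovered as (pileup + 1) / fold − 1, assuming that the caller added 1 to both, and its smallest value in a library was taken as the genome-wide background. Contigs other than chromosomes 1 to 22, X and Y were left out (0.393% to 0.441% of peaks in the 6 ENZ lists, 0.353% to 0.525% over all 24). The GRCh38 reference was not used, because the outermost peak lay beyond its end on 15 of 24 chromosomes.

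Peaks were merged where they shared at least 1 bp. Presence of peaks was compared by exact two-sided permutation tests over libraries. Fold enrichment and window shares (on the log2 scale) were tested with limma 3.58.1 (lmFit, eBayes with trend; R 4.3.3) with Benjamini-Hochberg adjustment over all regions or windows; the fit was checked on simulated data. Windows averaging under 20 peaks were left out. Regions named are, per direction, the 5 separated ones with the highest lowest fold enrichment and the 5 called ones with the largest difference and no overlap; windows are the 5 with the largest difference, and 1-Mb stretches the 3 with the most separated regions. Alternatives were stricter or rank-limited peak sets, other overlaps and tiles, other normalizations and values, a replicate block and leaving out each library. Regions, lists and tests were chosen with earlier results of these data known.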

Additional observations from a re-analysis of the deposited data

Results flagged for a closer look

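The difference between the sublines was larger with ENZ than with the mean of the other 3 treatments at 1 of 29296 regions, chr8:102289683-102290976. There RES-A minus LNCaP was higher with ENZ by 1.04 ± 0.17 on the log2 scale of fold enrichment (SE; limma, 24 libraries, adjusted p = 0.0421). The group means of normalized log2 fold enrichment were 3.31 in RES-A and 1.98 in LNCaP with ENZ, 3.13 and 2.80 with DMSO, 3.21 and 3.31 with DHT, and 3.51 and 2.88 with DHT+ENZ. Without LNCaP ENZ replicate 1 the difference was 0.93 ± 0.17 and did not pass (adjusted p = 0.237), an alternative added after seeing the data.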

How the results depend on the processing

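Counts of separated regions depended on the peaks used. RES-A-only regions numbered 7026 among the 50000 top-ranked peaks, 31238 over 500-bp tiles, and 10006 when every list was shortened to the length of the shortest, where LNCaP-only regions numbered 4121. With top-ranked or shortened lists, a region could have a lower-ranked peak in the other subline. Without LNCaP ENZ replicate 1 and with the top-ranked peaks, an alternative added after seeing the data, the counts were 8207 and 7867. Leaving out each library gave 21101 to 28959 RES-A-only and 2531 to 24246 LNCaP-only regions, the highest without LNCaP replicate 1. The carry-over into the 18 other libraries passed under every alternative (p between 0.00025 and 0.00391), at 9.43 to 69.5 percentage points for RES-A-only and -70.9 to -13.8 for LNCaP-only regions.

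For common regions, limma called 3739 with median centring (1645 higher in RES-A, 2094 lower), 6569 with pileup (3300 and 3269), 2613 with −log10 p (1248 and 1365), 790 where no library was under a fold enrichment of 4 (430 and 360), and 21384 at the regions called in the 5 libraries other than LNCaP replicate 1 (11359 and 10025). The filter at 4 left out 9 of the 10 named regions, and the named regions and windows have no value where other regions or 5-Mb windows were used. Leaving out each library gave 0 to 7693 regions (0 to 3964 higher and 0 to 3729 lower). The difference of the subline effect between ENZ and DMSO had 0 calls in limma under all alternatives but the mean of the 3 other treatments, with 1. With 25000 top-ranked or all deposited peaks, 161 and 154 windows of 10 Mb passed. In 5-Mb windows 337 passed (160 higher and 177 lower), of 576 tested. Leaving out each library gave 156 to 220 windows of 10 Mb (70 to 106 higher and 84 to 114 lower).

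None of the 6 list measures passed a test, and none could, since 3 libraries against 3 allow no exact permutation p under 0.1. Median peak length and median fold enrichment kept their sign with each library left out, and the other 4 changed sign, over -12900 to 61900 peaks, -2.302 to 21.2 Mb covered, -1.016 to 1.005 reads per base of background and -0.0006779 to 0.001642 percent of wide peaks (1500 bp or more). Without RES-A replicate 2 the last pair of differences were -0.4627 reads per base and -8.968e-05 percent. The causes of these changes were not tested.

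Same-numbered libraries share only a number in the labels, and their deviations from the group means correlated by 0.034, 0.029 and 0.00758 over common regions, with 2 of 3 RES-A libraries correlating best with their own number. With the replicate number as a block, limma called 546 common regions (334 higher and 212 lower) and 184 windows, R2 kept the value of 0.389 with an exact permutation p of 0.25 (the smallest possible), and the carry-over had an exact p of 0.00391. LNCaP replicate 1, the shallowest library, enters all counts that require a peak in every LNCaP library, and the part of its depth in them was not tested.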
